A study of Mus musculus with 4 samples.

Results

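Replication-dependent histone genes were examined in chromatin accessibility data from mouse visceral adipose tissue. Members were the genes of curated RefSeq on chromosomes 1 to 19 of GRCm38 (the assembly that mm10 names) whose symbol started with Hist1h, Hist2h, Hist3h or Hist4, or with the newer H1-, H2ac, H2bc, H3c or H4c. This gave 69 of 24963 curated genes, of which 57 matched by their symbol and 12 by an older name. In all, 67 of them were protein-coding, out of 20021 coding genes, and 2 were pseudogenes. Fat was taken from 4 mice of the outbred CD-1 stock, and each mouse gave 1 ATAC-seq library. The age given for the mice is 8 weeks, and the study's text does not say whether this was the age at sampling. ATAC-seq uses a transposase that cuts where chromatin is open, so that peaks of read pile-up mark accessible sites. The 2 control mice and the 2 BPA mice differed in the treatment of an ancestor. Pregnant dams of the BPA line were injected with bisphenol A (BPA) at 50 mg/kg from embryonic day 7.5 to 13.5. Those of the control line were injected with sesame oil. The sample titles place the BPA animals in the F3 generation and the study's text in the F4 generation. The labels name no transgene, no batch and no sex.

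Histones package DNA into nucleosomes, each built on a core of H2A, H2B, H3 and H4, while H1 binds the linker DNA between them. Replication-dependent histone genes supply the bulk of histone protein in S phase, when newly copied DNA has to be packaged. They stand in clusters, mostly lack introns, and their mRNAs end in a short stem-loop in place of a poly(A) tail. Their paralogs are so alike that short reads from one copy often match another. Visceral fat holds mostly cells that do not divide, such as adipocytes.

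The members fell into 4 clusters. Hist1 held 55 genes on chromosome 13, Hist2 held 10 on chromosome 3 within 50.3 kb, Hist3 held 3 on chromosome 11 within 6.28 kb, and H4f16 (Hist4h4) stood alone on chromosome 6. By type there were 6 genes of linker histone H1, 19 of H2A, 19 of H2B, 12 of H3 and 13 of H4. In Hist1, gaps of over 100 kb set apart group 1 of 18 genes over 122 kb, group 2 of 5 genes over 8.54 kb, group 3 of 29 genes over 233 kb, the testis pair H2bc1 and H2ac1, and the pseudogene H2af-ps2. Testis-type genes numbered 3, H1f6 (Hist1h1t), H2bc1 (Hist1h2ba) and H2ac1 (Hist1h2aa), which are known from male germ cells.

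Of the 69 members, 26 share a promoter region with a neighbour. They form 13 head-to-head pairs, each of an H2A and an H2B gene, whose start sites lie 164 to 281 bp apart (median 192 bp). The segments between the start sites of 6 pairs are printed from RefSeq's GRCm38 sequence, plus strand, 5′ to 3′, because these pairs had the strongest narrow peaks, peaks in some libraries, or none. Capitals mark CCAAT, the letters bound by the factor NF-Y, on either strand, and the octamer ATTTGCAT on either strand, known from H2B promoters as the site of OCT1. H2ac12/H2bc12 (chr13:22035644-22035820) had a narrow peak in all 4 libraries, H2ac22/H2bc22 (chr13:21787249-21787487) in both controls, H2bc7/H2ac7 (chr13:23574208-23574380) in control 2 and BPA 1, and the testis pair H2bc1/H2ac1 (chr13:23934157-23934436) in none. H2bc23/H2ac23 (chr13:21810200-21810366) and H2ac24/H4bc24 (chr13:21833476-21833742) also had none. They share a run of 167 identical bases on opposite strands, which is the whole segment of the former, so a read inside that run matches both places. H4bc24 carries the older H2B name Hist1h2br.
H2ac12/H2bc12: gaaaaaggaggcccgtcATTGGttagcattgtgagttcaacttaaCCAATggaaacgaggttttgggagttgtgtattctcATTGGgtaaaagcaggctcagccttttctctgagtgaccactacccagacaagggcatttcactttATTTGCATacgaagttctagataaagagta
H2ac22/H2bc22: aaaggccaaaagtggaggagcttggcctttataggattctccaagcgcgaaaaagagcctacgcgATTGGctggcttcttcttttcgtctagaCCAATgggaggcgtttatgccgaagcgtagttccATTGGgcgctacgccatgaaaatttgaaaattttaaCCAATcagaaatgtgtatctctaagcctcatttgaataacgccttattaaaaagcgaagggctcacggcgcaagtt
H2bc7/H2ac7: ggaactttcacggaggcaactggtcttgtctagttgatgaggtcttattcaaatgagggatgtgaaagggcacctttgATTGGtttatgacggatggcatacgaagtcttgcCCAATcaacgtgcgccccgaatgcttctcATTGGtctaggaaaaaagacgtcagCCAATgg
H2bc1/H2ac1: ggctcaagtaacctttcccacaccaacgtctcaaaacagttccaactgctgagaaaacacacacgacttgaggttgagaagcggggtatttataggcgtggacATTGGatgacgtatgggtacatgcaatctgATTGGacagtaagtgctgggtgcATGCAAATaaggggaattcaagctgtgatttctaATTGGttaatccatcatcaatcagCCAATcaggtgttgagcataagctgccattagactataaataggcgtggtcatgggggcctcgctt
H2bc23/H2ac23: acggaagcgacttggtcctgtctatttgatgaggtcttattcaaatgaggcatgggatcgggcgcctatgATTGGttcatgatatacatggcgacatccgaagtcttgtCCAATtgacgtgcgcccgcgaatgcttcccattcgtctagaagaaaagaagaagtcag
H2ac24/H4bc24: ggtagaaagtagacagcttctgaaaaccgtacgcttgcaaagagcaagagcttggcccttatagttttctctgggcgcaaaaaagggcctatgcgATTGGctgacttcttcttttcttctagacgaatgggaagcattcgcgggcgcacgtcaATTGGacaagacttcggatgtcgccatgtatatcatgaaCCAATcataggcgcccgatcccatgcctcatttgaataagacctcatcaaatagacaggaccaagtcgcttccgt

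Strings were counted on both strands in the 250 bases before the start site, where matches of different strings may overlap. CCAAT was present at 57 of 69 members (82.6%), against 34.6% of the 24831 distinct start sites of coding transcripts. It was found at all 6 H1, all 19 H2A and all 19 H2B genes, at 9 of 12 H3 genes and at 4 of 13 H4 genes. At least 2 matches were present at 47 members (68.1%), against 10.8% of coding start sites. The octamer stood before 7 of 19 H2A genes (36.8%) and 8 of 19 H2B genes (42.1%), against 1.53% of coding start sites, and before no H1, H3 or H4 gene. In head-to-head pairs the 250 bases of both genes overlap, so a match of any string can count for both. The same octamer was counted for both genes of H2bu1-ps/H2aw, H2ac12/H2bc12, H2ac8/H2bc8, H2ac6/H2bc4 and H2bc1/H2ac1. The H1 box, AAACACA, stood before 5 of 6 H1 genes (83.3%), against 5.44%. The TATA string TATAAA was found at 32 members (46.4%), against 11.2%, and the E2F-like string TTTNNCGC at 14 (20.3%), against 5.16%. These are matches of letters, not shown binding sites. Of these strings, the testis-type genes had CCAAT and the H1 box before all 3, and the octamer before H2bc1 and H2ac1. TATAAA stood before 2 of the 3 and the E2F-like string before 0. Among H2A and H2B genes the H1 box was rare, at 2 of 19 each, with H2ac1 and H2bc1 included. Because H2bc1 and H2ac1 face each other, their H1 box is the same match counted for both genes.

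The 150 bases before the start sites of a somatic and a testis-type H1 gene are set side by side, with CCAAT, the H1 box AAACACA and the TATA string in capitals. The stretch of H1f4 lies at chr13:23622559-23622708 on the minus strand, and that of H1f6 at chr13:23695661-23695810 on the plus strand.
H1f4: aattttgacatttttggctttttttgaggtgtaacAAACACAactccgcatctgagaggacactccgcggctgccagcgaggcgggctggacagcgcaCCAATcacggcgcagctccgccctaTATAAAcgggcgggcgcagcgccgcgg
H1f6: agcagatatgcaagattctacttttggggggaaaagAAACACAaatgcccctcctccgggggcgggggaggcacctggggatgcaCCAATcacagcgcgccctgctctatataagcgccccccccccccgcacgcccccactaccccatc
Both hold 1 H1 box and, after it, 1 CCAAT. H1f4 had a promoter peak in all 4 libraries, with its summit past the end of the gene. H1f6 had a weak one in the controls only, with its summit inside the gene.

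At the other end of the gene, the histone stem-loop was found within 150 bases after the stop codon in 63 of 67 coding members, 22 to 59 bases past the stop (median 31.0). The stem was allowed to vary in its pyrimidines and purines and the loop in its last base. The form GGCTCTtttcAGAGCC, stem in capitals and loop in lower case, was the most frequent with 41 genes. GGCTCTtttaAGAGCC was found in 9 genes and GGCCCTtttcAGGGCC in 8. H2bc21, H2ac22, H3c8 and H4c1 had no match to this form. The DNA around the start sites was rich in CpG but not in G+C. In the 500 bp either side, G+C had a median of 54.3% in members and 55.9% in coding genes, while the ratio of observed to expected CpG had a median of 0.881 in members against 0.595.

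The tissue label was read against marker genes. All 7 adipocyte markers, among them Adipoq, which encodes adiponectin, and Pparg, the regulator of fat cell formation, had a promoter peak in all 4 libraries. The same held for 58.8% of coding genes. By −log10 q-value, the marker peaks stood at a median of 54.3, 23.1, 64.7 and 51.2% of the list in control 1, control 2, BPA 1 and BPA 2. Coding genes with a peak had 9.31, 10.7, 9.32 and 6.88%, so the marker peaks stood lower in every list. Of 5 male germ cell markers, Ddx4, Prm1 and Tnp1 had none in any library. Dazl, an RNA-binding protein of germ cells, had one in BPA 2 only, and Sycp3, of the synaptonemal complex, lacked one only in control 1. The Dazl peak stood at 8.27% of the BPA 2 list, ahead of Adipoq there (51.2%) but behind Pparg (7.16%). Sycp3 stood at 84.9, 89.7 and 63.1% in control 2, BPA 1 and BPA 2. The lists held 72375 to 98060 peaks per library. The lowest local background ran from 1.16 in BPA 1 to 3.80 in BPA 2. It rises with the number of reads but also with the fragment length used in peak calling, so it is only a rough guide to depth. BPA 2 stood apart with the widest peaks, a median of 780 bp against 456 to 567 bp in the others.

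A promoter peak was a peak with at least 1 base within 500 bp of an annotated start site, and the peak with the highest −log10 q-value was taken for each gene. Most histone genes had one. In control 1, 51 of 69 members (73.9%) had a promoter peak, where 63.5% of coding genes did. In control 2, 48 members (69.6%) had one, where 62.3% of coding genes did. BPA 1 gave 38 members (55.1%), where 65.1% of coding genes had a peak. BPA 2 gave 48 members (69.6%), where 68.5% of coding genes had a peak. Members were thus above the share of all coding genes in both controls, about level with it in BPA 2 and below it in BPA 1. Control libraries averaged 49.5 ± 2.12 members (SD, n = 2) and BPA libraries 43.0 ± 7.07 (SD, n = 2), a difference of -6.50 that is smaller than the SD of the BPA group. It was larger than the SDs under some other rules. Controls and BPA had 43.0 ± 4.24 and 33 ± 1.41 where the summit had to lie within 500 bp. They had 51.5 ± 2.12 and 44.5 ± 4.95 with a window of 1000 bp. Equal numbers of peaks gave 49.5 ± 2.12 and 42.5 ± 6.36, and the best 20000 peaks 39.5 ± 4.95 and 32 ± 4.24. Under further rules it stayed smaller than the SD of the BPA group. A window of 250 bp gave 46.0 ± 0 and 42.5 ± 6.36. A −log10 q-value of at least 5 gave 48.5 ± 2.12 and 43.0 ± 7.07. The same held with members matched by symbol only, without the testis-type genes, and with members of at least 50% unique sequence. The coding genes moved the other way, with 12585 ± 170 in controls and 13378 ± 476 in BPA (SD, n = 2). With 2 libraries a group, the smallest two-sided p of an exact permutation test is 0.333, so no difference between the groups was tested. Peaks of bulk tissue do not tell a site open in more cells from one more open in each cell.

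All 4 libraries had a peak at 36 members (52.2%), against 58.8% of coding genes, and no library had one at 14 (20.3%), against 29.4%. The other 19 members had a peak in some of the libraries. BPA 1, the library with the lowest local background, lacked a peak at 31 members. It was the sole library without one at 6 of them, H2bu2, H2ac13, H1f5, H4c6, H1f3 and H3c2. No member had a peak in both BPA libraries and neither control, against 2.60% of coding genes. In contrast, 3 members (4.35%) had one in both controls and neither BPA library, against 0.410% of coding genes. These were H2ac22 and H2bc22, which share 1 promoter, and H1f6, so they count as 2 loci. Without BPA 2 the count in controls only was 9 and without control 2 it was 5. The same counts were 1.08 and 1.06% of coding genes, against 13.0 and 7.25% of members. The difference between the group means was -1.50 members without BPA 1 and -11.5 without BPA 2, and the part of depth in it was not tested.

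**Figure D1:**
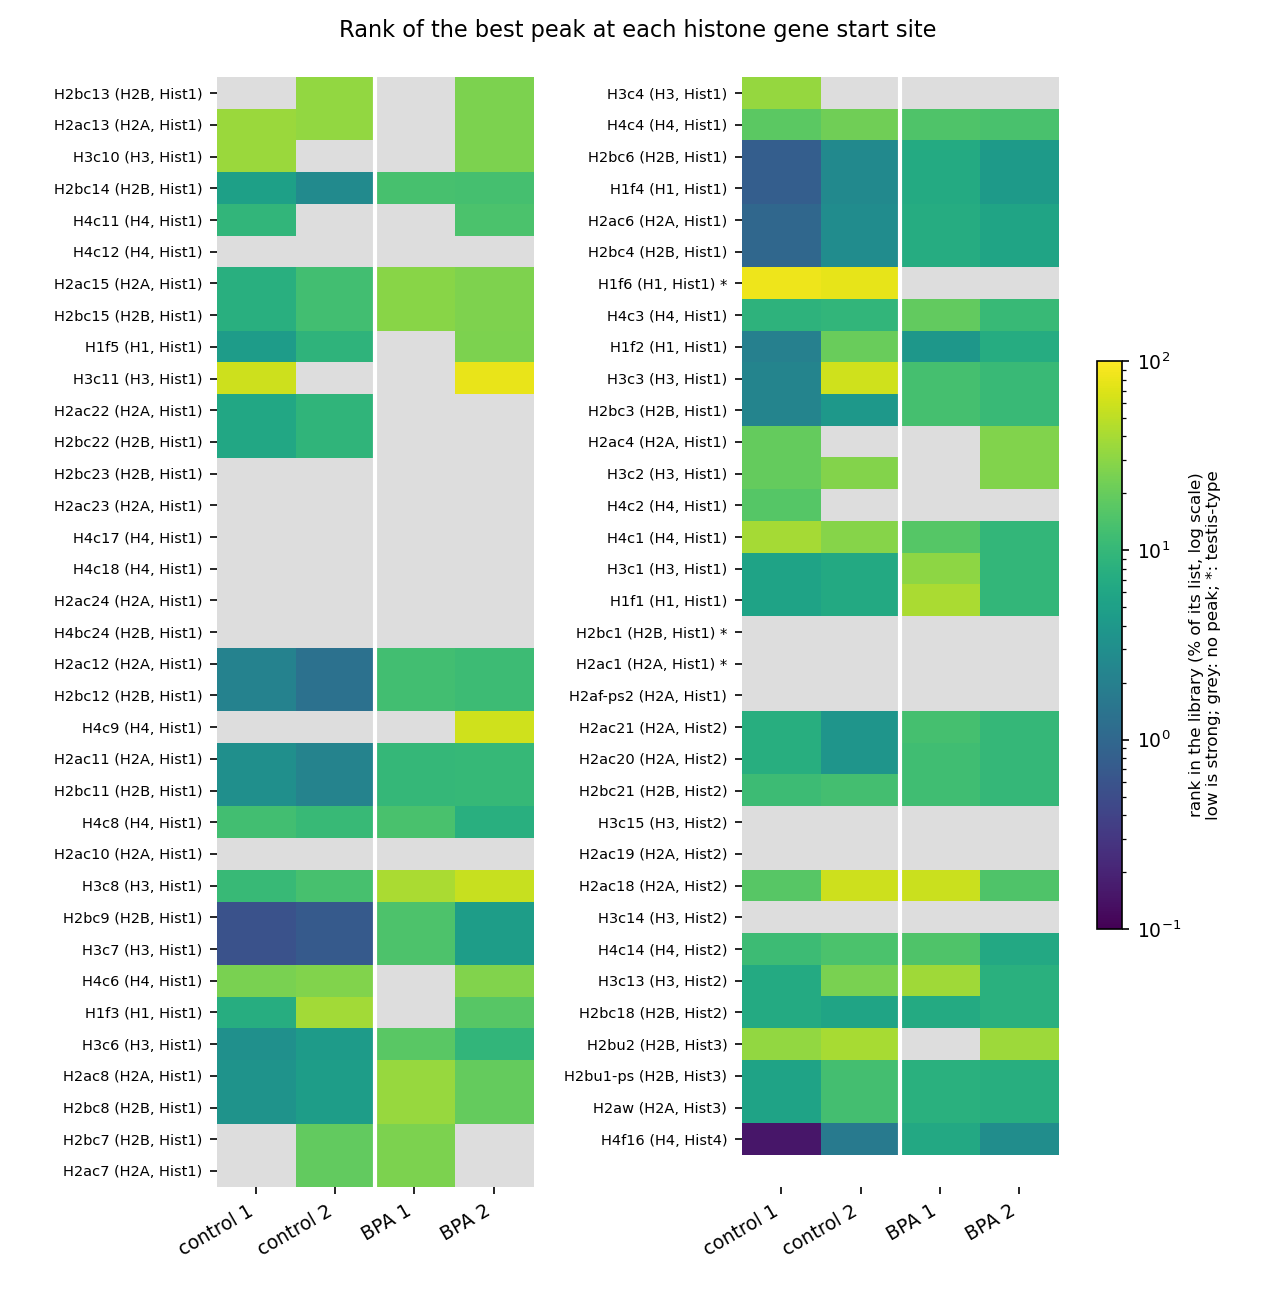
Rank of the best promoter peak for each of 69 members (rows, by cluster and position, with histone type) in 4 libraries (columns). Colour gives the rank as a percent of the library's peak list on a log scale, low being strong, and grey marks no peak; 14 rows are grey throughout and BPA 1 has 31 grey cells.

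By type, the linker histone genes had the fullest set in the controls, and every type was lowest in BPA 1. All 6 H1 genes had a promoter peak in both controls, 3 did in BPA 1 and 5 in BPA 2. Few of these H1 peaks were centred on the promoter. Their summit lay within 500 bp at 0 of 6 in control 1 and 3 of 6 in control 2. It did so at 1 of 3 in BPA 1 and 0 of 5 in BPA 2. H2A genes gave 12, 12, 10 and 11 of 19 in the order control 1, control 2, BPA 1 and BPA 2. H2B genes gave 14, 16, 13 and 14 of 19 in that order. H3 genes gave 10, 7, 6 and 9 of 12, and H4 genes gave 9, 7, 6 and 9 of 13. By cluster, Hist2 was the same in every library, with 7 of 10 genes, and Hist1 ran from 28 of 55 in BPA 1 to 40 in control 1. Within Hist1, group 1 was the poorest of groups 1 to 3, with 10, 8, 3 and 9 genes in the 4 libraries, while group 3 had 26, 25, 21 and 23. Group 2 had 4, 4, 4 and 5 of 5 genes. H4c9 is the gene of that group which had a peak in BPA 2 alone, at rank 61.4%.

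Members with a peak in some libraries had a median rank of 19.3% in control 1 (n = 15), 27.6% in control 2 (n = 12) and 26.3% in BPA 2 (n = 12), where members with a peak in all 4 had 5.25, 5.15 and 9.73%. The ranges overlapped, and the best of them was H1f5, which encodes H1.5, at 4.57 and 8.99% in the controls and 25.9% in BPA 2. H4c6 had peaks of 358, 363 and 397 bp at ranks 24.7, 27.3 and 26.7% in control 1, control 2 and BPA 2, and H2bu2 of Hist3 had ranks of 32.3, 40.9 and 36.5% in the same libraries. H3c2 ranked at 19.3, 27.9 and 27.0% there, and H2ac13 at 35.5, 32.8 and 25.7%. Control 1 and BPA 2 alone had a peak at H3c10, H4c11, H3c11 and H2ac4, which ranked at 9.43 and 14.2% for H4c11 and at 58.8 and 78.9% for H3c11. Control 1 alone had one at H3c4 (33.7%) and H4c2 (16.3%), and control 2 and BPA 2 had one at H2bc13, of 196 and 1452 bp. The edge of the window decided some of these. The nearest peak to H4c11 was 502 bp away in control 2 and 509 bp away in BPA 1, that to H2ac4 was 539 bp away in control 2, that to H1f3 568 bp away in BPA 1 and that to H2bc13 650 bp away in control 1. Farther off but within 1000 bp, the nearest peak to H1f5 was 882 bp away in BPA 1 and that to H2ac7 915 bp away in control 1. With a window of 1000 bp the mean was 51.5 members in controls and 44.5 in BPA.

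**Figure D2:**
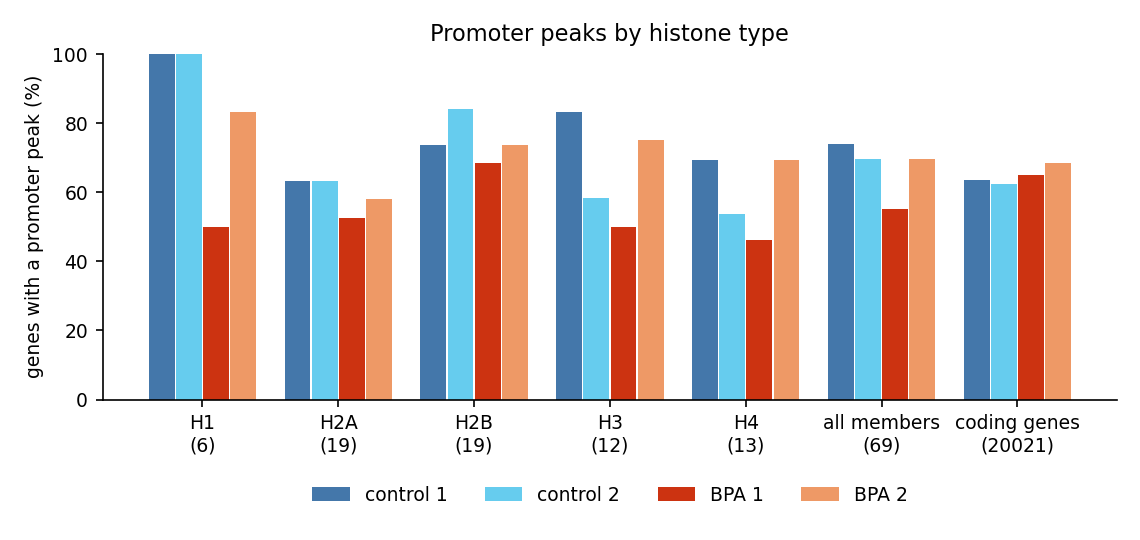
Percent of genes with a promoter peak (bars from 0) for each histone type, for all 69 members and for all coding genes, one bar per library and the number of genes in brackets. Every histone type has its lowest bar in BPA 1, whereas coding genes range only from 62.3 to 68.5%.

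The 14 members without a peak in any library were H3c15, H2ac19 and H3c14 in Hist2, and H4c12, H2bc23, H2ac23, H4c17, H4c18, H2ac24, H4bc24, H2ac10, H2bc1, H2ac1 and H2af-ps2 in Hist1. Several lie in sequence that is repeated elsewhere in the genome, and the authors kept only uniquely mapped reads. Of the 50-base words around a member's start site (500 bp either side, best start site), a median of 70.7% occurred once in the genome, against 100% in coding genes. Under 50% were unique at 15 members (21.7%), against 3.35% of coding genes. Over all 69 members, a median of 100% of words was unique upstream of the start site and 42.5% downstream. Over the 14 without a peak it was 2.66% upstream and 7.97% downstream, so both sides were repeated there. All 8 members with under 10% unique words, H3c15, H3c14, H2bc23, H2ac23, H4c17, H4c18, H2ac24 and H4bc24, had no peak, nor did any of the 307 coding genes in that range, these members included. For H2bc23, H2ac23, H4c17, H4c18, H2ac24 and H4bc24 the nearest peak in any library was between 18578 and 32003 bp away. At these 8 genes the lack of a peak cannot be told apart from a lack of reads that could be placed.

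The other 6 members without a peak had more unique words. H2ac19 had 40.0%. H2ac1 had 99.2% unique words and H2bc1 86.3%, and their nearest peaks lay 5794 to 20211 bp away. H4c12 had 71.4% and its nearest peak was 2835 to 3276 bp away. H2ac10 had 70.7%, with a peak 1049 to 1115 bp away in every library, outside the window. H2af-ps2, a pseudogene, had 57.7% and its nearest peak was 4311 to 8355 bp away. Between 50 and 80% unique words, 28 of 31 members (90.3%) had a peak in at least 1 library, as did 16.9% of 779 coding genes. Of the 23 members with at least 80% unique words, 21, 20, 15 and 19 had a peak in the 4 libraries, controls first, so BPA 1 was lowest among these too. All 4 libraries had one at 15 of the 23 (65.2%), where 63.0% of the 18572 coding genes in that range did. Between 50 and 80% it was 17 of 31 members (54.8%) against 10.0% of coding genes, and between 10 and 50% it was 4 of 7 (57.1%) against 2.2%.

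**Figure D3:**
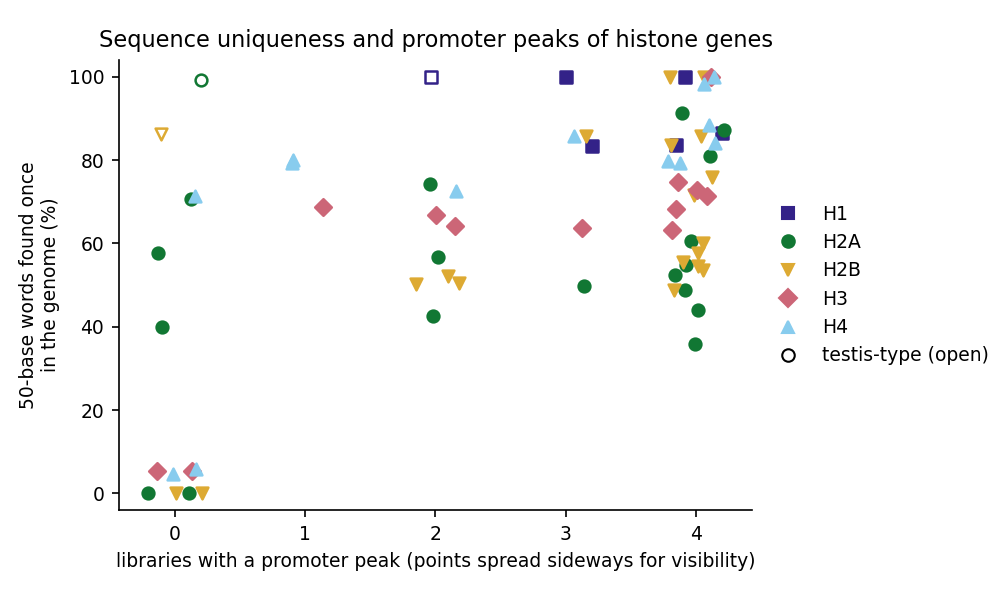
Percent of 50-base words around the start site that occur once in the genome (y) against the number of libraries with a promoter peak (x) for 69 members, with colour and shape for histone type and open symbols for testis-type genes. The 8 members below 10% all stand at 0 libraries, and the open symbols of H2ac1 and H2bc1 stand at 0 libraries with 99.2 and 86.3%.

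The testis-type genes had a weak peak or none in this tissue. H2bc1 and H2ac1, the germ cell forms of H2B and H2A, had no promoter peak. H1f6, the linker histone of spermatocytes, had peaks of rank 84.1% in control 1 and 77.5% in control 2, which are among the weakest in those lists. These peaks were 358 and 211 bp wide with pile-ups of 21 reads at both summits. Their summits lay 506 and 489 bp downstream of the start site, inside the gene of 735 bp and at the edge of the window. With a window of 250 bp either side, the count of members with a peak in both controls only was 2 in place of 3, which leaves the H2ac22 and H2bc22 pair.

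Where members had a peak it was often high in the list. A rank was the place of a peak in its library by −log10 q-value, as a percent of the list, with low values strong. Over members with a peak the median rank was 6.84 and 9.40% in the controls and 13.4 and 10.8% in BPA 1 and BPA 2. Over coding genes it was 9.31 and 10.7% in the controls and 9.32 and 6.88% in BPA. The 5 best members by median rank were H4f16, H2bc9, H3c7, H1f4 and H2bc6. H4f16, the lone H4 gene on chromosome 6 with 100% unique words, ranked at 0.151, 1.69, 6.52 and 2.94%. H2bc9 and H3c7 stand head to head, farther apart than the H2A and H2B pairs, and shared 1 peak, which ranked at 0.572, 0.712, 14.4 and 4.69%. H1f4 and H2bc6 also shared 1, at 0.778, 2.64, 6.81 and 4.29%. Its summit lay past the end of H1f4 and just upstream of a distal start site of H2bc6. The 5 worst of the 36 were H2ac18, H3c8, H4c1, H2bc15 and H2ac15. H2ac18, with 35.8% unique words, ranked at 16.5, 58.9, 57.9 and 15%. H3c8 ranked at 10.4, 13.3, 41.7 and 55.8%, with both controls ahead of both BPA libraries.

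Many member peaks were narrow. In the order control 1, control 2, BPA 1 and BPA 2, the median width of member peaks was 814, 416, 697 and 1452 bp. Coding genes had 1206, 976, 1009 and 1300 bp. Peaks under 400 bp were found at 15, 23, 16 and 7 members, which is 29.4, 47.9, 42.1 and 14.6% of those with a peak. The same share was 4.27, 7.80, 3.77 and 1.22% of coding genes. Member widths were 615 ± 281 bp in controls and 1074 ± 534 bp in BPA (mean of library medians ± SD, n = 2). That difference of 459 bp is smaller than the SD of the BPA group and rests on BPA 2, whose peaks were wide everywhere. Without BPA 2 the BPA value was 697 bp. The widest peak of H1, H3 and H4 was one and the same, 2879 bp in BPA 2 across H4c1, H3c1 and H1f1. For H2A it was one of 2687 bp in BPA 2 over H2ac21, H2ac20 and H2bc21, and for H2B one of 2703 bp in control 1 over H2bc6 and H1f4.

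In control 1, control 2 and BPA 1, peaks at the H2A and H2B pairs were narrower than those of the other members, and in BPA 2 they were not. Members in pairs had a median width of 344, 273, 284 and 1461 bp, and the other members 1067, 648, 1097 and 1302 bp. Both genes of 7 pairs out of 13 had a peak in each library, and neither gene of 3 pairs had one in any. A single peak served both genes in 7, 9, 8 and 8 pairs. At H2ac12/H2bc12 that peak was 297, 277, 279 and 363 bp wide over a segment of 177 bases between the start sites. Its summit lay 77 to 92 bp upstream of the H2A start site in every library, near the middle of the segment printed above. The pile-up at that summit was 69, 83, 47 and 110 reads and the rank 2.14, 1.31, 12.3 and 11.5%. H2ac11/H2bc11 had widths of 258, 245, 277 and 1470 bp, and H2ac8/H2bc8 of 307, 269, 255 and 345 bp. H2bc14, an H2B gene in no pair, was as narrow, with 267, 292, 272 and 301 bp. Uniqueness was low at these pairs too. It was 44.1 and 48.7% at H2ac12 and H2bc12, with the unique words mostly upstream, and its part in the narrow peaks was not tested. At least 80% unique members had median widths of 1108, 820, 1044 and 1615 bp.

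H2ac22/H2bc22 was the pair that split the groups. Control 1 had a peak of 259 bp at rank 6.26% with a pile-up of 56 reads, and control 2 one of 302 bp at rank 9.30% with 52 reads. Neither BPA library had a peak within 500 bp, and the nearest to the H2ac22 start site were 7505 bp away in BPA 1 and 3405 bp away in BPA 2. The genes had 56.7 and 50.3% unique words. The pair H2bc7/H2ac7 split the libraries another way, with peaks of 236 bp at rank 19.1% in control 2 and 289 bp at rank 25.7% in BPA 1 and none in control 1 or BPA 2. In a segment of 173 bases it holds 4 matches of CCAAT, as many as the 239 bases of H2ac22/H2bc22 do.

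**Figure D4:**
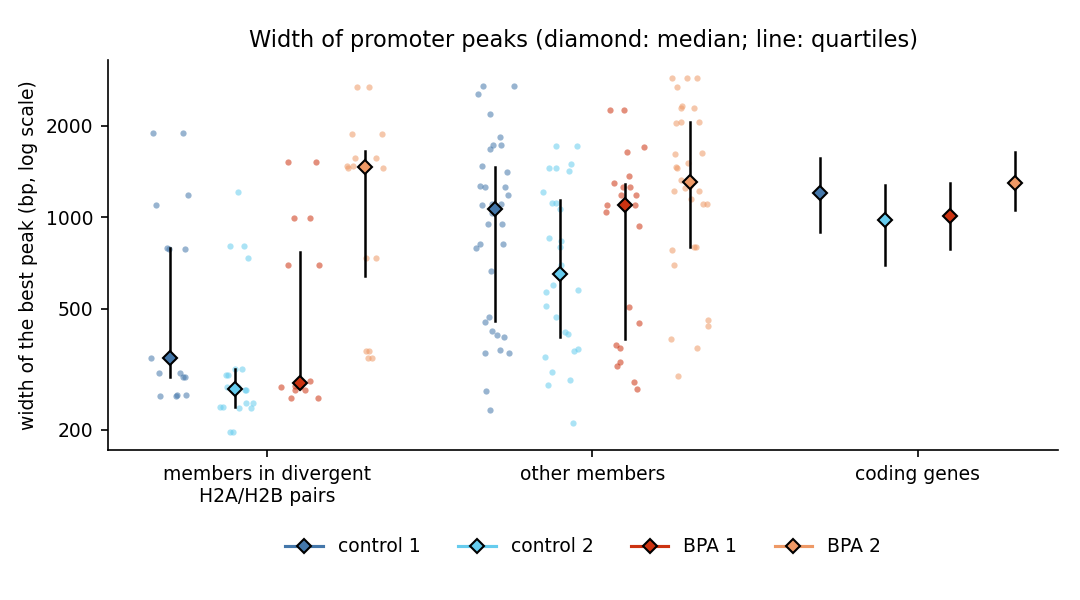
Width of the best promoter peak on a log axis for members in divergent H2A/H2B pairs, other members and all coding genes, with 1 point per member, diamonds for medians and lines for quartiles, by library. Medians of the paired members are 344, 273 and 284 bp in control 1, control 2 and BPA 1 and 1461 bp in BPA 2, while those of coding genes stay between 976 and 1300 bp.

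Summits lay just upstream of the start site more often than at other genes, and also beyond 500 bp more often. Of member peaks, 66.7, 79.2, 73.7 and 64.6% had their summit 1 to 250 bp upstream, against 48.5, 56.4, 41.1 and 34.9% of coding genes. Within 500 bp on either side lay 74.5, 87.5, 84.2 and 70.8% of member summits, against 90.9, 92.5, 93.0 and 91.6% at coding genes with a single start site. H2B genes were the most regular, with all 14, 16 and 13 summits upstream and within 500 bp in control 1, control 2 and BPA 1. In BPA 2 all 14 were upstream and 13 within 500 bp.

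Summits past the end of the gene were found at 8, 5, 4 and 9 members in the 4 libraries, and the linker histone genes held 4, 2, 2 and 4 of these. In control 1, 4 of 6 H1 genes with a promoter peak had its summit past the annotated end of the gene, as did 2 of 6 in control 2, 2 of 3 in BPA 1 and 4 of 5 in BPA 2. At H1f5 the summit lay 1174, 1155 and 1157 bp downstream of the start site in control 1, control 2 and BPA 2, beyond a gene of 794 bp by 362 to 381 bp. At H1f3 it lay 373 bp past the end in control 1 and 412 bp past it in BPA 2, while control 2 had a peak of 346 bp with its summit 4 bp upstream of the start site. At H1f4 it lay 441, 537, 469 and 464 bp past the end in the 4 libraries. There the annotation has a distal start site of H2bc6, and relative to it the same summits lay at -212, -116, -184 and -189 bp. At H1f2 it lay 211, 257 and 99 bp past the end in control 1, BPA 1 and BPA 2, and 57 bp upstream of the start site in control 2. For H1f1 the best peak in the controls also covered the H3c1 promoter and in BPA 2 those of H3c1 and H4c1, and BPA 1 had a peak of its own with its summit 54 bp inside the gene. H1f5 and H1f1 had 100% unique words and the other somatic H1 genes between 83.4 and 86.4%. When the summit itself had to lie within 500 bp, 25 members had a peak in all 4 libraries.

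Most histone peaks ranked lower in the BPA libraries than in the controls, while coding genes as a whole more often ranked higher. Of the 36 members with a peak in all 4 libraries, 24 (66.7%) had a worse rank in both BPA libraries than in both controls, while 18.6% of the 11782 coding genes with a peak in all 4 did. A better rank in both BPA libraries was seen at 2 members (5.56%), H4c4 and H4c1, against 41.2% of those coding genes. The other 10 overlapped. The median rank over the 36 was 5.25 and 5.15% in the controls, and 13.2 and 9.73% in the BPA libraries. Over the coding genes it was 8.25 and 9.68%, and 8.25 and 5.77%. Histone genes thus stood ahead of other promoters in both controls and behind them in both BPA libraries. Over all members with a peak, the mean of the library medians was 8.12 ± 1.81% in controls and 12.1 ± 1.88% in BPA (SD, n = 2), a difference of 3.96 that is larger than either SD. That did not hold under several alternatives. With a window of 250 bp the means were 9.29 ± 4.29 and 12.0 ± 2.01%, with the summit in the window 9.85 ± 3.78 and 12.5 ± 1.85%, with the nearest summit 9.66 ± 3.77 and 12.5 ± 2.16%, over distinct peaks 9.97 ± 3.34 and 13.0 ± 2.04%, and at a −log10 q-value of at least 5 12.7 ± 2.49 and 15.1 ± 3.71% (SD, n = 2). For coding genes the means were 10.0 ± 1.02 and 8.10 ± 1.73%.

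**Figure D5:**
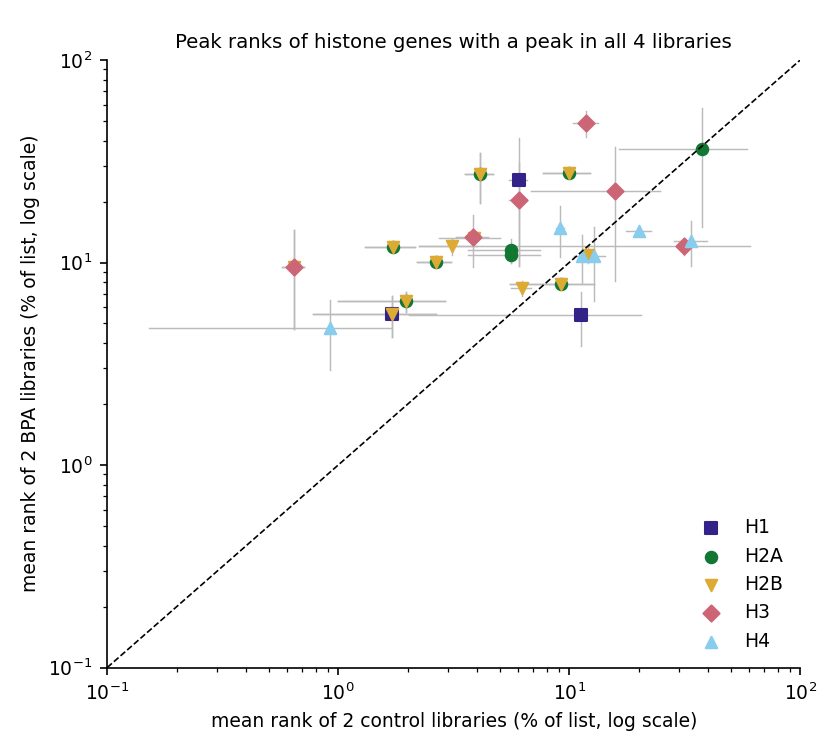
Mean rank of the best promoter peak in 2 BPA libraries (y) against 2 control libraries (x), both as percent of the list on log axes, for the 36 members with a peak in all 4 libraries; grey lines join the 2 libraries of a group, points of genes that share a peak coincide, and the dashed line marks equal ranks. Most points lie above the line, and 24 of the 36 have both BPA ranks above both control ranks.

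By type, the worse rank in BPA held for 2 of 3 H1, 7 of 9 H2A, 9 of 12 H2B, 4 of 6 H3 and 2 of 6 H4 genes. By cluster it held for 21 of 26 genes in Hist1, 2 of 7 in Hist2, 0 of 2 in Hist3 and the lone gene of Hist4. H2ac8/H2bc8 gave 3.52, 4.69, 34.8 and 19.6%, the groups far apart. H2bc14 gave 5.01, 2.72, 13.3 and 13.0%, and H3c6 gave 3.24, 4.46, 17.2 and 9.55%. H2bc18 in Hist2 gave 6.84, 5.62, 6.83 and 8.13%, where the groups overlap. H4c4 ranked at 17.6, 22.5, 15 and 13.7%. H4c1 ranked at 39.3, 28.3, 16 and 9.57%, the last from the wide peak that also covers H3c1 and H1f1. Genes that share a peak are not separate observations. When members with a common peak in any library counted as 1 locus, 12 of 22 loci (54.5%) had a worse rank in both BPA libraries for all their genes, and 1 had a better one. Leaving out 1 library at a time gave between 61.9 and 80.6% of members, the latter without control 2, and between 21.7 and 32.5% of coding genes.

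These ranks are set here beside depth, base composition, peak width and uniqueness. The BPA libraries had the lowest and the highest local background of the 4, and with equal numbers of peaks from each list the share of members with a worse rank was 66.7%. At the summit, members had a median pile-up of 64 reads in control 1 and 56.5 in control 2, where coding genes had 56 and 55. In BPA 1 it was 50.0 reads and in BPA 2 151, where coding genes had 77 and 252. Beside coding genes of the same library, member pile-ups were thus higher in both controls and lower in both BPA libraries. The coding share with a worse rank in BPA ran from 35.3% in the quintile of genes with the lowest G+C (under 53.8%) to 5.85% in that with the highest. In the lowest quintile, 9 of 15 members (60.0%) had a worse rank against those 35.3%. In the next quintile (53.8 to 57.8% G+C), 14 of 18 members (77.8%) did, against 25.1%. Among genes with a median width under 400 bp, 10 of 11 members (90.9%) did, against 33.3% of 63 coding genes. From 400 to 800 bp it was 0 of 2 members against 20.5%, from 800 to 1200 bp 5 of 10 (50.0%) against 22.6%, and over 1200 bp 9 of 13 (69.2%) against 14.3%. With at least 80% unique words it was 8 of 15 members (53.3%) against 18.5%, and from 50 to 80% it was 13 of 17 (76.5%) against 35.9%. Worse ranks also outnumbered better ones among coding genes of the lowest G+C quintile (35.3 against 23.4%), while in the highest 56.0% were better. Under 400 bp, 21 coding genes were worse and 15 better, but members made up 10 of these 21 and 1 of these 15. From 50 to 80% unique words, 28 were worse and 22 better, and members made up 13 of the 28 and 1 of the 22. Without the members, better ranks outnumbered worse ones in both of these sets. All the coding sets include the coding members, and the part of depth, base composition, width or uniqueness in the result was not tested. Whether the difference belongs to the treatment, to the mice or to how the libraries were made cannot be told apart with 2 libraries a group.

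Other genes of histone supply were open throughout. All 18 genes of histone gene transcription and mRNA processing on the list had a promoter peak in all 4 libraries, among them Npat, the coactivator of the clusters, at 1.03, 0.599, 0.204 and 0.501%. Slbp, whose protein binds the stem-loop printed above, ranked at 3.71, 3.12, 0.182 and 0.0377%, with both BPA libraries ahead of both controls. Of these 18 genes, 8 ranked better in both BPA libraries, a share near the 41.2% of all coding genes, and 1, Sympk, a scaffold of the cleavage complex, worse (5.56%, against 18.6%). All 10 histone chaperones had a peak in all 4 libraries, including Nasp, a carrier of H3 and H4, and Asf1b. There 3 ranked worse and 2 better in BPA, against 18.6 and 41.2% of coding genes. All 16 S phase and proliferation genes did too, and 7 of them (43.8%) ranked worse in both BPA libraries, against the 18.6% of all coding genes, and 5 better. The 7 were Mcm3, Mcm4, Mcm5 and Mcm6 of the replicative helicase, Ccna2 and Cdk1 of the cell cycle engine, and Top2a. Mcm5 ranked at 0.747, 0.242, 6.37 and 2.95%. Mki67 ranked at 11.8, 11.1, 10.9 and 5.60%.

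Replication-independent histone genes are transcribed outside S phase as well and mostly encode variants. Of 11, 10 had a peak in all 4 libraries. H1f0, a linker histone of resting cells, lacked one in control 1 and ranked at 52.3, 12.5 and 8.30% in control 2, BPA 1 and BPA 2. Of the 10, 2 ranked worse in both BPA libraries, H2aj and Cenpa, and 5 better, near the 18.6 and 41.2% of all coding genes. H3f3b, which encodes the variant H3.3, ranked at 8.62, 4.23, 1.64 and 1.16%, and H2az1, which encodes H2A.Z, at 6.02, 2.94, 4.02 and 5.29%.

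The genes between the histone genes seldom had a promoter peak. The Hist1 groups enclose 49 other coding genes, mostly vomeronasal receptors of the Vmn1r family, and 8, 6, 6 and 7 of these had a promoter peak. Over all coding genes the share was 62.3 to 68.5%. How unique the sequence of these neighbours is was not examined, so a missing peak may also reflect reads that could not be placed. Peaks in all 4 libraries were found at 5, Abt1, Btn2a2, Hfe, Zfp184 and Zfp322a, and 41 had none, against 58.8 and 29.4% of coding genes. Of the 5, Btn2a2 had a worse rank in both BPA libraries, with 7.88, 8.13, 80.7 and 45.9%, while Abt1 gave 3.03, 8.74, 13.0 and 3.82%.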

How the data were processed

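ATAC-seq data from 4 libraries of visceral adipose tissue (2 control and 2 BPA mice) were read as 1 peak list per library. The list of BPA 2 carries another replicate number than its sample title, and the title was followed. According to the study's methods and the submitters' processing notes, the authors trimmed reads with Trim Galore, mapped them with Bowtie2 2.3.5.1 to mm10, kept uniquely mapped reads, removed duplicates with SAMtools and called peaks in each library with MACS2 2.2.7.1, without pooling. Read length and the remaining peak calling options are not given in the sources used here. The deposited lists give, for each peak, an integer score, the fold enrichment at the summit, a −log10 p-value and a −log10 q-value. The authors' score equals 10 times the −log10 q-value.

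Coding and member genes came from curated RefSeq on GRCm38, chromosomes 1 to 19. A promoter peak overlapped the 500 bp either side of a start site, and its rank came from the −log10 q-value in its list, as a percent. Read depth is not in the files. The summit pile-up and local background were computed from the fold and p-value through the Poisson model of the caller, and matched 100.0% of peaks in every library within a relative error of 1e-04. Uniqueness was the share of 50-base words found once in the genome, both strands. Scripts were tested on simulated data and ran in Python 3.11.15 with numpy 2.4.6, scipy 1.17.1, pandas 2.3.3, numba 0.67.0 and matplotlib 3.10.9. No test between groups was run, since 2 against 2 libraries cannot give a two-sided exact p below 0.333, and values are given as mean ± SD of the libraries or as counts beside those of all coding genes.

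Genes named were the testis-type members, members without a peak in at least 1 library (the first 20 by position), those that split the groups, the 5 best and 5 worst median ranks, the widest peak of each type, and genes of the companion lists. Of 33 members without a peak in at least 1 library, those past the 20 were named after their values were seen, as were the narrow pairs, H2bc14, H3c6, H2bc18 and the H1 genes. Members and lists were chosen with earlier results of these data known. Alternatives varied the window, the summit rule, the q-value, the number of peaks, the start sites, shared peaks, uniqueness and the libraries.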

Additional observations from a re-analysis of the deposited data

How the results depend on the processing

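Across 177 combinations of result and alternative, 154 stayed within a set limit and 23 moved beyond it. The limit was 1 SD between libraries for means and 1.5 times the value for counts and shares of worse ranks. For the share of coding genes with a peak in all 4 libraries it was the binomial interval of the main share. A turn of direction could be scored only for the difference between the group means of members with a peak, which stayed negative. The share of coding genes with a peak in all 4 libraries was 60.2% with a window of 1000 bp, 57.7% with 250 bp, 51.6% with the summit in the window, 54.9% at a −log10 q-value of at least 5, 57.7% with equal numbers of peaks, 41.0% with the best 20000 peaks, 55% for genes with a single start site, 56.6% over start sites and 60.8% for genes with at least 50% unique words. Leaving out 1 library gave 59.0 to 61.0%. Median member ranks in controls and BPA were 12.7 and 15.1% at a −log10 q-value of at least 5 and 22.9 and 45.8% with the best 20000 peaks, where a rank is a percent of fewer peaks, and the control value was 9.97% over distinct peaks. With the best 20000 peaks, 1 member had a peak in BPA libraries only and 6 in controls only. Leaving out 1 library gave 0 to 1 in BPA only (1 without BPA 1) and 3 to 9 in controls only (9 without BPA 2). The share of coding genes with a worse rank in both BPA libraries was 21.7 to 32.5% with 1 library left out, and that of members 58.3 to 80.6% over all alternatives. Apart from the smaller lists, the cause of these shifts was not tested. The alternative on unique words, and every alternative for the worse ranks, was chosen after seeing the data. No paired analysis was possible because no label pairs a control mouse with a BPA mouse. The results are counts, shares and medians that come from no test. Depth is known only through pile-up and background, peaks below the peak caller's threshold cannot be told from closed chromatin, and 2 mice a group limit every difference between groups.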
